A study of Arabidopsis thaliana with 102 samples.

Results

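Chromatin immunoprecipitation with sequencing (ChIP-seq) placed the Arabidopsis thaliana transcription factor bZIP60 at 225 genomic intervals at which bZIP28, the other bZIP factor of the ER stress response, had no peak. These intervals were taken from the 3 bZIP60 peak lists, 1 for each time-point of recovery, and were chosen by position alone, keeping every peak that shared no base with any peak of the 3 bZIP28 lists pooled. They were 225 of the 467 bZIP60 peaks, with 140 of 250 at 0 h, 11 of 47 at 12 h and 74 of 170 at 24 h, among 1143 peaks of both proteins. The other 242 bZIP60 peaks shared bases with a bZIP28 peak and are called shared peaks here. The lack of an overlapping bZIP28 peak chose these peaks and is therefore no result, and a peak missing from a list does not show that the protein was not there.

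bZIP60 and bZIP28 act in separate arms of the unfolded protein response (UPR), which raises the folding and transport capacity of the endoplasmic reticulum (ER) when misfolded proteins build up. The mRNA of bZIP60 is spliced by the ER membrane kinase and ribonuclease IRE1, which yields an active factor, whereas bZIP28 leaves the ER for the Golgi and is freed from the membrane by proteases. Both can bind the ER stress response element ERSE-I, and bZIP factors in general bind ACGT cores such as the G-box.

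The study followed seedlings through recovery from tunicamycin (Tm), an inhibitor of protein N-glycosylation that causes ER stress. Whole seedlings, 5 days old, spent 6 h in Tm or its solvent DMSO and were then given 0, 12 or 24 h on Tm-free medium. RNA-seq covered Col-0 (wild type) and the mutants bzip28-2 and bzip60-2, all in the Col-0 background, in 18 groups of 3 replicates of 12 seedlings each (54 libraries). ChIP-seq used GFP-bZIP60 driven by its own promoter in bzip60-2 and GFP-bZIP28 driven by the constitutive 35S promoter in Col-0, with 2 replicates per group, Tm treatment and the same time-points. The lines therefore differed in promoter and in background, and how that bears on which peaks were called for 1 protein only was not tested. The authors kept peaks that were reproducible between both replicates and removed those that overlapped a peak of DMSO-treated seedlings unless the peak was much stronger after Tm, so each list stands for both replicates together and gives no spread over samples.

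Expression values were FPKM, that is, fragments corrected for transcript length and for the number of fragments mapped, and summed to between 819066 and 918448 per library. In all 54 libraries the shoot markers RBCS1A (3110 to 28400 FPKM) and CAB3 (163 to 6930 FPKM) and the root hair markers EXPA7 (2.04 to 27.8 FPKM) and LRX1 (1.37 to 17.1 FPKM) were above 0, as whole seedlings would have. bZIP28 ran from 7.61 to 36.4 FPKM and bZIP60 from 17.9 to 379 FPKM over all libraries, and neither transcript was absent from its mutant. The reads of these transcripts were not placed relative to the mutations here, so the level of either transcript does not check the genotype labels. In whole seedlings, fewer cells of a type and less RNA per cell cannot be told apart.

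The stretches printed next carry elements found in 9 of these peaks. Each shows the match of 1 element closest to the middle of the whole peak. These peaks were chosen because their genes recur in the expression results or because the peak had 1 of the top scores. All stretches are read 5′ to 3′ on the strand of the listed gene from the RefSeq copy of the TAIR10 genome, and capitals mark the matched letters. The first pair holds ERSE-I, which is CCAAT and CACG with 10 free bases between them on either strand. For the SEC61 alpha gene AT1G29310 the element lies on the opposite strand and its CACG is part of a G-box, CACGTG. Because they fall in annotated exons, of the divergent neighbour FACE2 (AT2G36305) at YIP1a and of SEC61 alpha itself, only 29 bases of each are shown.
YIP1a, chr2:15214487-15214515, minus strand, 152 bases before the start: tttaaCCAATTACATCGTGCCACGttata
SEC61 alpha, chr1:10252218-10252246, plus strand, spanning the start: tgcCACGTGTATCCGTATTATTGGttcga
The next 2 peaks were among the 6 with the highest scores at 0 h. At AT2G25460 the capitals mark ERSE-I, which runs into the core TGACGT on the opposite strand, and then a G-box. At AT3G54000 they mark the UPR element UPRE-I, TGACGTGG or TGACGTGA, also on the opposite strand, which holds the core TGACGT by its definition.
AT2G25460, chr2:10835737-10835845, minus strand: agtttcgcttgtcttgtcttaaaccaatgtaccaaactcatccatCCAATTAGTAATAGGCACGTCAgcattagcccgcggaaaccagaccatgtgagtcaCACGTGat
AT3G54000, chr3:19995843-19995940, plus strand: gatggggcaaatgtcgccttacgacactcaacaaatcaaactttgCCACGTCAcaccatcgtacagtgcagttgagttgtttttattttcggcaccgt
SEC31A and NAC103, which had the largest called differences between the genotypes, had neither ERSE-I nor UPRE-I in the central 500 bp of their peaks. The gene called SEC31A here is AT1G18830, which the paper's primer list names SEC31B. The capitals mark TGACGT at SEC31A, 106 bases before the start, and UPRE-III, TCATCG, at NAC103, 658 bases before the start.
SEC31A, chr1:6489077-6489172, plus strand: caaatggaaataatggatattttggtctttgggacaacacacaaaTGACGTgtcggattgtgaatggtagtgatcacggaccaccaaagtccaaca
NAC103, chr5:25636402-25636497, minus strand: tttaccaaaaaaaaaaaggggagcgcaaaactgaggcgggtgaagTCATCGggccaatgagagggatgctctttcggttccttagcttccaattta
The peak with the highest score of all 225, listed for TIC, held a pair of G-boxes 2620 bases before that gene's start. For the 24 h list, a stretch with TGACGT is shown from AT3G05937 and a stretch with a W-box, TTGACC or TTGACT, from WRKY22, where both elements were on the opposite strand.
TIC, chr3:7910235-7910330, plus strand: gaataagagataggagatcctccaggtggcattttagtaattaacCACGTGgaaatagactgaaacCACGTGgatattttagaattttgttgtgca
AT3G05937, chr3:1776887-1776982, minus strand: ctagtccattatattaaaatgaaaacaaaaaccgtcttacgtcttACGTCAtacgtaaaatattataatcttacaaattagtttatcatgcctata
WRKY22, chr4:525316-525411, minus strand: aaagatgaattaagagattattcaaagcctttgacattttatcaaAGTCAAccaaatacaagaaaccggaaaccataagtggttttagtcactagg

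The authors' annotation put 160 of the 225 peaks in the promoter class (up to 1 kb from the start of the listed gene), 103 of 140 at 0 h (73.6%, 95% Wilson interval 65.7 to 80.2%) and 54 of 74 at 24 h (73.0%, 61.9 to 81.8%), but 3 of 11 at 12 h. Wilson intervals here cover counting error only. Fewer peak centres were close to a start, since 73 of 225 (32.4%) lay between 500 bp before and 100 bp after the start of the listed gene, and 91 of 225 (40.4%; 47.3% of the 24 h peaks) had no start of a coding gene within 1 kb. The 24 h peaks reached further into genes, since the median peak centre was 669 bp past the start of the listed gene at 24 h and at 0 bp at 0 h. Shared peaks shifted likewise, with medians of 757 bp at 24 h and -9 bp at 0 h. The 3′ UTR class held 10 of 74 peaks at 24 h and 3 of 140 at 0 h, against 3 of 96 and 2 of 110 shared peaks. Peaks at 24 h were also wider, with a median of 738.5 bp against 464.5 bp at 0 h and 172 bp at 12 h. The median widths of shared peaks were 1816 bp at 24 h, 673 bp at 0 h and 1009 bp at 12 h. How far peak width accounts for the shift of the centres was not tested.

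The score of a peak is the enrichment of ChIP over input that the authors' peak caller gave. Median scores were 2.70 at 0 h, 3.04 at 12 h and 4.06 at 24 h, and the ranges overlapped widely, from 1.76 to 6.49, 2.01 to 5.79 and 2.68 to 5.61. Shared peaks had medians of 3.92, 4.23 and 5.00. Each list was called on its own, so a score is best read within its time-point.

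**Figure D1:**
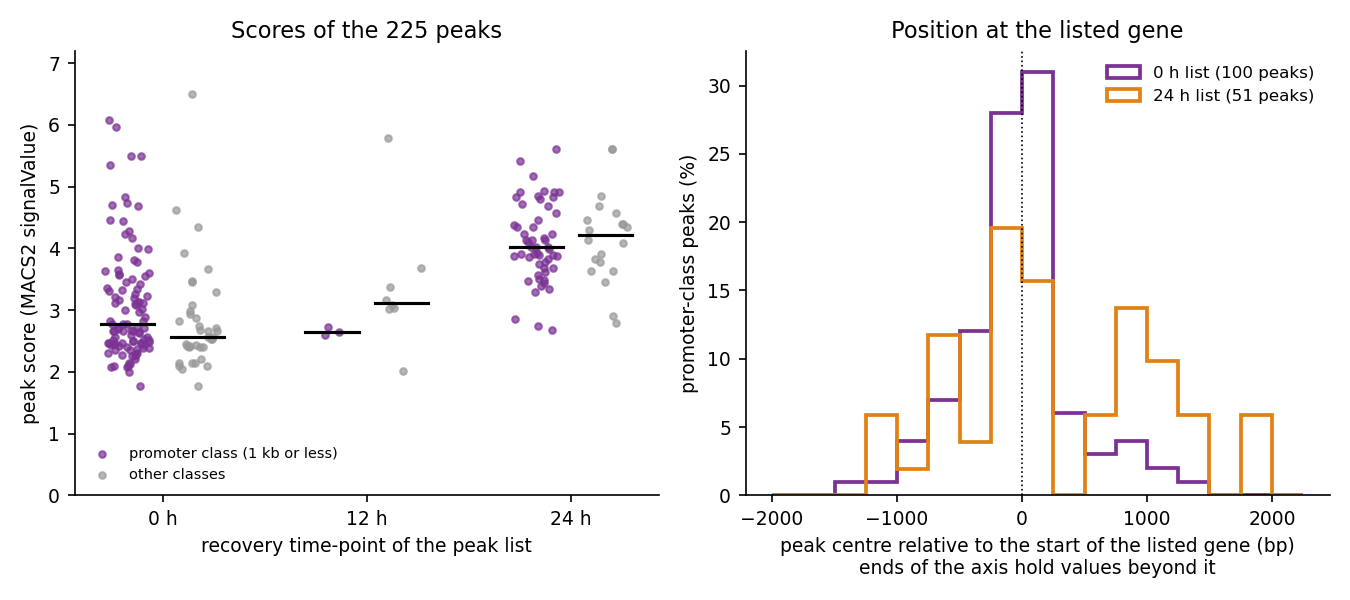
Left, score of each of the 225 peaks by time-point, with promoter-class peaks apart from other classes and a black bar at each median. Right, distance of the peak centre from the start of the listed gene for promoter-class peaks with an annotated start, in 250 bp bins, where the 24 h peaks hold a second group about 1 kb past the start.

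At 0 h the top scores belonged to TIC (6.49), a component of the circadian clock, TIP (6.08), a NAC transcription factor, AT3G15980 (5.96), the β′ subunit of the COPI coat, AT2G25460 (5.49) and SEC31A (5.49), a subunit of the outer COPII coat. At 24 h TIC, WRKY22 and AT4G02370 shared a score of 5.61, followed by the zinc finger factor ZAT6 (5.42) and the transcribed pseudogene AT3G22234 (5.17). At 12 h the top peaks were those of AT3G33055 (5.79), AT2G08986 (3.69), AT2G09800 (3.38 and 3.08) and AT5G31651 (3.16). More than 50% of the sequence was masked as repeated in 6 of the 11 peaks at 12 h, against 14 of 140 at 0 h and 2 of 74 at 24 h. Among shared peaks this held for 21 of 36 at 12 h, 21 of 110 at 0 h and 21 of 96 at 24 h.

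The rule chose peaks by position relative to bZIP28 peaks, so their distance from those peaks is no result. The median gap to the closest bZIP28 peak was 65530 bp. Of the 225 peaks, 24 had a bZIP28 peak within 1000 bp, including 6 of the 11 at 12 h. The closest was the 0 h peak of ZAT12, another zinc finger factor, which lay 32 bp from a bZIP28 peak, and next came the 12 h peak of AT3G33055 at 61 bp. On the other side of the rule, the bZIP60 peak with the smallest overlap, at AT3G33076 at 12 h, shared 153 of its 160 bases. Calling a peak shared only where at least 50% of the shorter peak overlaps left the same 225 peaks.

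Few positions held peaks of this set at more than 1 time-point. The 225 peaks made up 211 loci, of which 198 had a peak at 1 time-point, 12 at 2 and 1 at all 3. Shared peaks were left out of these loci, so a position counted at 1 time-point may have had a shared bZIP60 peak at another. The locus with all 3 lay less than 1 kb downstream of its listed gene, the pseudogene AT5G31651. Up to 87.8% of the bases of a peak there are masked as repeated sequence. Among the 74 peaks at 24 h, 12 overlapped one of the same set at 0 h. TIC had the highest score of these loci (6.49 at 0 h and 5.61 at 24 h), followed by COX19-2 (2.41 and 4.69), a mitochondrial copper chaperone homologue, SAG21 (3.46 and 4.58), the F-box gene FBS3 (3.81 and 4.46) and WRKY33 (4.28 and 3.50), a regulator of defence against fungi. With AT5G31651, the genes AT3G13310, AT2G18690, AT5G40470 and LBD37 completed the 10 loci with the highest scores.

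The composite element ERSE-I was in a larger share of the 0 h peaks than of the 24 h peaks, with overlapping intervals. In the central 500 bp, read on both strands, ERSE-I was found in 11 of 140 peaks at 0 h (7.86%, 95% Wilson interval 4.44 to 13.5%) and 2 of 74 at 24 h (2.70%, 0.744 to 9.33%). Of all 27443 windows of 500 bp upstream of coding genes, 0.958% held it, as did 0.346% of the windows of the whole genome. Shared peaks held it in 22.7% at 0 h (15.9 to 31.4%) and 4.17% at 24 h. Besides YIP1a, SEC61 alpha and AT2G25460, the 0 h peaks with ERSE-I were listed for POD1, FBS3, AT1G29060, AT1G11880, AT5G17233, DTA2, NAC102 and AT1G22403, and the 24 h peaks for FBS3 and GBF3. ERSE-II, ATTGG and CACG with 2 free bases between them, was in 1 peak of 225.

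The simpler ACGT elements, the G-box and TGACGT, were in more peaks than the composite ones. They have fewer fixed letters and were in more of the upstream windows too. The G-box was found in 29.3% of the 0 h peaks (22.4 to 37.3%) and 18.9% of the 24 h peaks (11.6 to 29.3%), against 9.35% of the upstream windows and 24.5% of the shared peaks at 0 h. The core TGACGT was in 29.3% at 0 h and 20.3% at 24 h, against 12.7% of the upstream windows. UPRE-I, which always holds that core, was in 7.14% at 0 h and 5.41% at 24 h, against 2.73%. Any of ERSE-I, UPRE-I, G-box and TGACGT was present in 71 of 140 peaks at 0 h (50.7%, 42.5 to 58.9%), 27 of 74 at 24 h (36.5%, 26.4 to 47.9%) and 0 of 11 at 12 h, where the Wilson interval reached 25.9%, against 20.6% of the upstream windows.

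Elements bound by other factor families were counted in the same windows. The W-box, bound by WRKY factors, was in 67.6% of the 24 h peaks (56.3 to 77.1%) and 54.3% of the 0 h peaks (46.0 to 62.3%), against 45.2% of the upstream windows and 43.8% of the shared peaks at 24 h (34.3 to 53.7%). The CGCG element, CGCGTT or CGCGTG, bound by calmodulin-binding CAMTA factors, was in 21.4% at 0 h and 17.6% at 24 h, against 8.02% of the upstream windows and 23.6% and 17.7% of the shared peaks. The UPR element UPRE-III was in 15.7% and 20.3%, against 20.9% and 15.6% of the shared peaks, 14.1% of the upstream windows and 18.1% of the genome windows. The median GC content of the central 500 bp was 36.6% at 0 h and 34.8% at 24 h, against 31.4% for the upstream windows, and its part in these shares was not tested. A match to letters does not show that a factor bound there, and with 1 list per time-point no test over samples was possible.

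**Figure D2:**
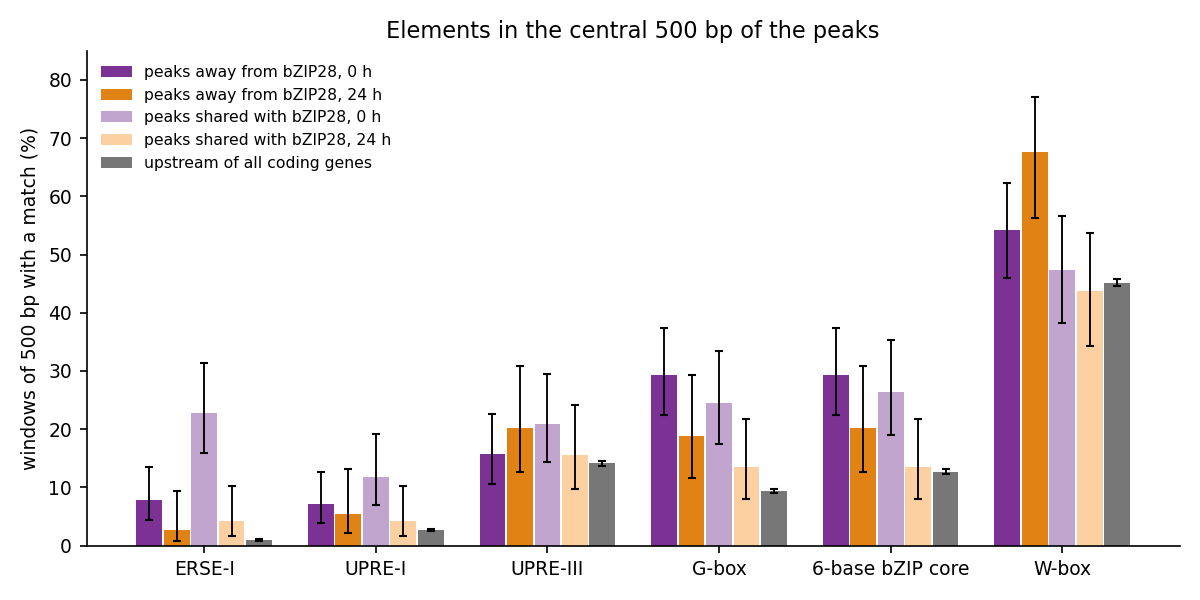
Share of central 500 bp windows with a match to each element, for peaks away from bZIP28 and shared peaks at 0 and 24 h and for the windows upstream of all coding genes. Bars start at 0, error bars are 95% Wilson intervals, the 6-base bZIP core is the ACGT core with the prefix TG, and the composite ERSE-I stands highest in the shared peaks at 0 h.

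The genes listed for promoter-class peaks were then followed in the RNA-seq data to see how their transcripts moved during recovery. There were 152 such genes, of which 139 were tested because some library exceeded 1 FPKM, while 13 had values too low. Tests used limma on log2(FPKM + 1), so fold changes of weakly expressed genes are understated, and p-values were adjusted over the 21864 genes tested. A gene was called where its log2 fold change exceeded 1 in size and its adjusted p was below 0.01. The gene of 6 of the 152 also had a shared promoter-class peak, and 145 other genes had only shared peaks in that class.

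In Col-0, nearly all calls among the genes at these peaks were for higher levels after Tm. At 0 h of recovery 21 of the 139 were higher after Tm (15.1%) while 0.627% of all genes tested were called higher, and none was lower while 0.325% of all genes were. At 12 h, 52 were higher (37.4%) with 7.18% of all genes, and again none was lower with 1.78% of all genes. At 24 h, 44 were higher with 7.39% of all genes, and 1 was lower with 3.22% of all genes. At an unadjusted p under 0.05 in limma, 19, 10 and 14 of the 139 genes were lower at 0, 12 and 24 h, beside 2235, 3848 and 4440 of the 21864 genes tested. The median log2 fold change of the 139 was 0.13, 0.68 and 0.59 at 0, 12 and 24 h, and that of all genes 0.00, 0.08 and 0.04. Among the 116 tested genes with only shared peaks, 42, 68 and 64 were higher.

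The count at 0 h fell whichever library was left out. Leaving out Tm replicate 3 left 7 calls, Tm replicate 2 left 11, Tm replicate 1 left 12 and DMSO replicate 3 left 13. How far the smaller number of libraries accounts for these losses was not tested. With FPKM scaled between libraries, the median of all genes at 12 h fell by 0.13, and the calls there were 47 higher and 1 lower.

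Every call at 0 h was for a gene of the 0 h list, whereas the 24 h list was called later. Of the 95 tested genes of the 0 h list, 21 were higher after Tm at 0 h (22.1%), 30 at 12 h and 24 at 24 h. Of the 50 tested genes of the 24 h list, 1 was higher at 0 h, 27 at 12 h (54.0%) and 24 at 24 h (48.0%). Of all genes tested, 0.627% were called higher at 0 h, 7.18% at 12 h and 7.39% at 24 h. Calls were thus more frequent at the later time-points among all genes as well. The single gene of the 24 h list called at 0 h, FBS3, was also on the 0 h list. Over all 139 genes, 37 were higher at both 12 and 24 h, and these include the 15 that were higher at all 3 time-points. A further 12 were higher at 12 h only, 7 at 24 h only and 3 at 0 h only, and 76 were called at no time-point. These patterns were not counted over all genes tested. Whether the lists differ in response was not tested, since genes of a list are not replicates.

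**Figure D3:**
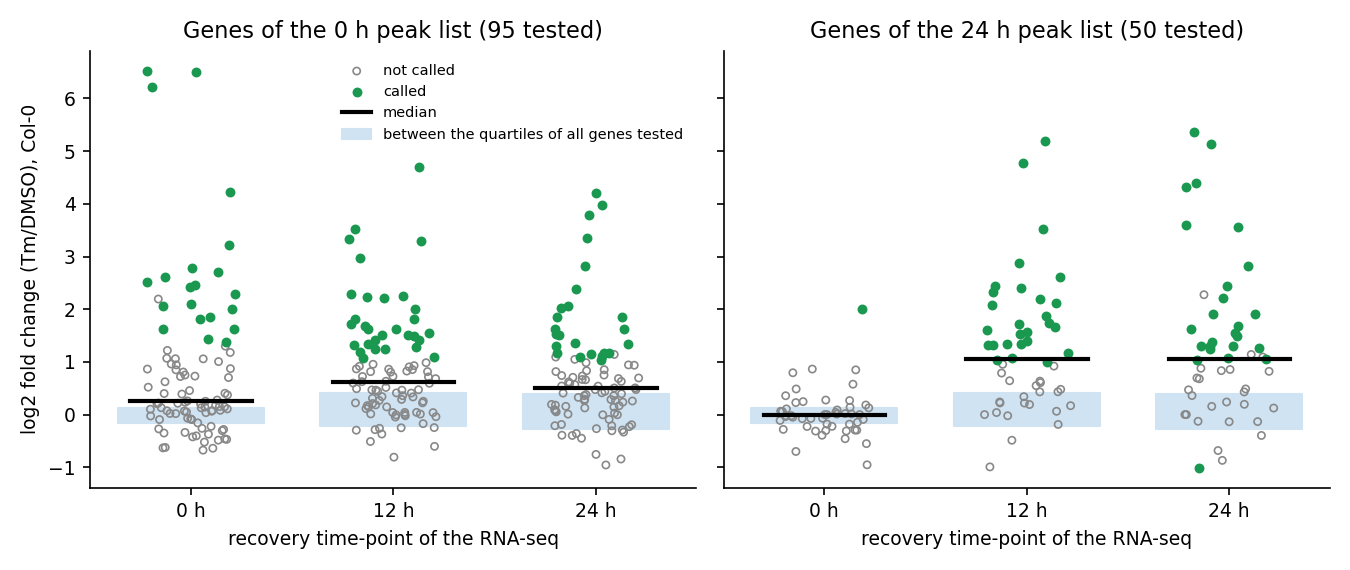
Log2 fold change (Tm/DMSO) in Col-0 at each recovery time-point for the tested genes of the 0 h and of the 24 h peak list, 1 point per gene, filled where called by limma, with the median as a bar and the range between the quartiles of all genes tested as a band. Genes of the 24 h list lie around 0 at 0 h and have medians of 1.06 at both later time-points.

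Among the genes of the 0 h list were 12 of the secretory pathway, a group put together after the names at the peaks had been read. Of these, 9 were higher after Tm at 0 h, 9 at 12 h and 8 at 24 h, beside 0.627%, 7.18% and 7.39% of all genes tested, with median log2 fold changes of 1.94, 1.75 and 1.34. They span the entry of proteins into the ER (SEC61 alpha, the channel subunit, and the signal peptidase subunit AT3G05230), COPII export (SEC31A, the SAR1 GTPase SARA1A, and the SEC23/SEC24 family members CEF and AT4G14160), COPI return (AT3G15980, the α subunit AT1G62020 and the ε subunit AT1G30630) and membrane factors (YIP1a, the SNARE-domain protein AT1G29060 and TNO1 of the trans-Golgi network). The members not called at 0 h were AT4G14160 (log2 fold change 0.72), AT1G30630 (0.13) and TNO1 (1.299, limma adjusted p = 0.0109).

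SEC31A was close to silent without Tm, at 0.148, 0.213 and 0.276 FPKM in DMSO-treated Col-0 at 0 h, and stood at 101, 119.8 and 106 FPKM after Tm. The replicates of the treatments lay far apart, and the log2 fold change was 6.50 (standard error 0.095, limma adjusted p = 2.55e-05). By 12 h the Tm values had dropped to 11.02, 10.19 and 12.12 FPKM and by 24 h to 2.33, 2.06 and 2.85 FPKM, still above every DMSO library of the same time-point.

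SARA1A, which starts the assembly of the COPII coat, went from 0.794, 0.900 and 1.06 FPKM in DMSO to 154, 197 and 179 FPKM after Tm at 0 h in Col-0. Its log2 fold change was 6.53 (standard error 0.11, limma adjusted p = 4.46e-05) at 0 h and 3.98 at 24 h, where replicate 2 after Tm (14.5 FPKM) was the lowest of 14.5, 28.7 and 36.1 FPKM. AT3G15980 went from 45.1, 41.5 and 41.3 FPKM to 279.6, 304 and 273 FPKM at 0 h, without overlap, and its log2 fold change was 2.71 (standard error 0.07, limma adjusted p = 0.000123). SARA1A and SEC61 alpha belong to families of close homologues, and how reads were divided among those copies is uncertain.

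YIP1a, a membrane protein of the Yip1 family, had 16.6, 24.0 and 28.0 FPKM in DMSO and 84.2, 109 and 99.2 FPKM after Tm at 0 h in Col-0. The groups did not overlap, and the log2 fold change was 2.07 (standard error 0.21, limma adjusted p = 0.00887). This call was lost under several alternatives, with an adjusted p of 0.0617 in limma without Tm replicate 3, 0.0494 without Tm replicate 2, 0.0361 without Tm replicate 1, 0.0377 without DMSO replicate 2, 0.0194 without DMSO replicate 3 and 0.0117 with scaled FPKM. Its start lies next to that of FACE2, so the peak could be listed for either gene.

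Among the UPR regulators, NAC103, a NAC factor of the UPR, had 1.83, 1.61 and 2.92 FPKM in DMSO-treated Col-0 at 0 h and 51.1, 61.8 and 56.2 FPKM after Tm. No replicate overlapped, and its log2 fold change of 4.22 at 0 h (standard error 0.17, limma adjusted p = 0.000542) was 1.61 at 12 h and 1.09 at 24 h. NAC089, a membrane-bound NAC factor, rose by 2.29 at 0 h, 2.00 at 12 h and 2.02 at 24 h on the log2 scale (limma adjusted p = 0.00102, 0.00026 and 0.000617). BI1, an inhibitor of cell death at the ER, had a peak of the 3′ UTR class at 24 h and rose by 2.86, 2.96 and 2.97 (limma adjusted p = 0.00337, 3.32e-05 and 0.000643).

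The transcribed pseudogene AT4G21730, annotated as a copy of the vesicle fusion factor NSF, went from 2.04, 2.08 and 6.02 FPKM in DMSO to 272, 303 and 321 FPKM after Tm at 0 h in Col-0, with a log2 fold change of 6.21 (standard error 0.35, limma adjusted p = 0.0013). How its reads divide from those of NSF itself is uncertain.

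Lists of ER stress genes were looked up among the genes of all 225 peaks. None of 18 ER folding genes (such as BIP3 and ERDJ3B) and none of 7 genes of ER-associated degradation were listed for them, but 16 and 5 of these genes were listed for a bZIP28 peak, and peaks that overlap bZIP28 had been left out by the rule, so nothing is read from these counts of 0. Of 10 UPR regulators, 3 were at these peaks (BI1, NAC089, NAC103), as were 3 of 14 genes for ER entry and export (SEC31A, SEC61 alpha, YIP1a) and 3 of 16 abiotic stress genes (NCED3, ZAT10, ZAT12). These lists say which peak was near which gene and were not tested. In Col-0, the folding list had 16, 17 and 17 of 18 genes higher after Tm at 0, 12 and 24 h. NCED3, which makes the precursor of abscisic acid, had a distal peak and log2 fold changes of -0.25, -0.12 and 0.05, none of them called.

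A group of 21 transcription factors, also put together after the names had been read, had 3 members higher after Tm at 0 h, 11 at 12 h and 10 at 24 h in Col-0, beside 0.627%, 7.18% and 7.39% of all genes tested. Of these, 14 were on the 0 h list and 9 on the 24 h list, and WRKY33 and LBD37 were on both. ZAT12, ZAT10, ZAT6, ERF5, WRKY22, WRKY33, WRKY45 and GBF3 were called higher at 12 h but not at 0 h, with log2 fold changes at 12 h from 1.04 (WRKY22) to 3.52 (WRKY33). ERF71, RAP2.4, bZIP2, LBD37 and ASL5 were called at no time-point.

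WRKY33 had 22.1, 23.7 and 20.9 FPKM in DMSO and 41.3, 40.3 and 42.2 FPKM after Tm at 0 h in Col-0. At 12 h the values were 9.30, 11.2 and 8.91 FPKM in DMSO and 120.2, 136 and 112 FPKM after Tm, with a log2 fold change of 3.52 (standard error 0.11, limma adjusted p = 2.75e-05). The treatments did not overlap at either time-point, but the change at 0 h, 0.86, was under the fold required.

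AT5G44990, of the glutathione S-transferase family, was at 0 to 0.0403 FPKM in DMSO and 0.131 to 0.267 FPKM after Tm at 0 h in Col-0. It reached 24.2, 34.5 and 29.0 FPKM at 12 h and 48.2, 40.3 and 56.8 FPKM at 24 h after Tm, with DMSO at or below 0.273 FPKM. Its log2 fold changes were 4.77 at 12 h and 5.36 at 24 h (limma adjusted p = 2.73e-05 and 4.24e-05). Other late genes of the 24 h list were AT2G18690 (5.18 and 5.13), GSTU11, another glutathione S-transferase (2.61 and 4.39), and AT5G24210, an α/β-hydrolase (2.88 and 4.32).

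SEX4, a phosphatase of starch breakdown, was the 1 gene called lower, with 41.3, 61.4 and 59.1 FPKM in DMSO and 27.2, 24.9 and 25.4 FPKM after Tm at 24 h. Its groups did not overlap, and it fell by 1.01 on the log2 scale (standard error 0.16, limma adjusted p = 0.00476), a call lost on leaving out DMSO replicate 2 or 3 or any Tm replicate, with adjusted p from 0.0146 to 0.0226 in limma. TIC, with the highest peak score, had log2 fold changes of 0.18, 0.19 and -0.04 and was called at no time-point.

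The mutant of bZIP60 was compared with Col-0 by the difference in log2 fold change (Tm/DMSO) between genotypes, with limma on 3 replicate fold changes each. A difference was called at an adjusted p under 0.05 over all genes tested. Within bzip60-2 itself, 14, 54 and 35 of the 139 genes were higher after Tm at 0, 12 and 24 h, with 0.512%, 8.08% and 5.36% of all genes tested. At 0 h 1 of the 139 genes differed from Col-0, SEC31A, which was also the only gene called of all tested (0.00457%). At 12 h 7 differed, 3 with a larger and 4 with a smaller response (2.61% of all genes in either direction), and at 24 h none did (0.00457%). At an unadjusted p under 0.05, limma gave 6 larger and 36 smaller at 0 h, 29 and 17 at 12 h, and 14 and 14 at 24 h. Over all 21864 genes these counts were 334 and 912, 1525 and 2842, and 1856 and 1538, so smaller responses outnumbered larger ones among all genes at 0 h as well.

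SEC31A after Tm at 0 h had 1.85, 1.79 and 1.06 FPKM in bzip60-2, below every Tm library of Col-0 by a wide margin. Its response was smaller by 5.47 on the log2 scale (difference -5.47, standard error 0.27, limma adjusted p = 0.0309). At 12 h it stood at 2.57, 2.06 and 2.70 FPKM after Tm, and the difference was -1.72 (standard error 0.20, limma adjusted p = 0.0293). Without any 1 of the 6 replicates neither difference was called, with adjusted p of 0.108 to 0.817 for the 0 h difference and 0.0524 to 0.143 for the 12 h difference, while the sign stayed the same in each.

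NAC103, SARA1A, AT3G15980 and YIP1a were lower after Tm in every bzip60-2 library than in every Col-0 library at 0 h, without a called difference. NAC103 had 10.3, 10.4 and 8.22 FPKM, SARA1A 47.9, 52.5 and 43.5 FPKM, AT3G15980 136, 163 and 121 FPKM, and YIP1a 57.5, 70.7 and 53.7 FPKM. At 12 h this order turned, and SARA1A had 65.9, 70.2 and 79.5 FPKM after Tm in bzip60-2 against 19.2, 22.0 and 23.7 FPKM in Col-0. AT3G15980 had 272, 284.6 and 287 FPKM against 124, 136 and 144 FPKM at 12 h.

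Of the other genes called at 12 h, WRKY33 had a difference of -0.98 (standard error 0.16, limma adjusted p = 0.0453), although its Tm values in bzip60-2 (191, 169 and 207 FPKM) were above those of Col-0. Its DMSO values there were higher as well, 39.0, 25.3 and 31.4 FPKM against 8.91 to 11.2 FPKM in Col-0. AT3G54000, a TIP41-like protein, had a difference of 0.94 and AT3G05937 of 0.87 (standard errors 0.15 and 0.13, limma adjusted p = 0.0434 and 0.0409). AT3G13310, a DnaJ-domain protein (0.75), AT2G26190, a calmodulin-binding protein (-0.81), and the hemoglobin HB1 (-0.74) complete the 7, of which the last pair is named because it was called and not by the naming rule. None of these calls held without any 1 of the 6 replicates, including Col-0 replicates 1, 2 and 3 and bzip60-2 replicates 1, 2 and 3, each of which left 0 of the 139 genes called.

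In bzip28-2, the mutant of the factor without peaks at these sites, the responses of the called genes were larger than in Col-0. Of the 225 peaks, 25 were listed for a gene that was also listed for a bZIP28 peak. A peak without overlap therefore does not mean a gene without a bZIP28 peak. Within bzip28-2, 35, 57 and 26 of the 139 genes were higher after Tm at 0, 12 and 24 h, with 0.938%, 8.65% and 3.93% of all genes tested. At 12 h 15 of the 139 had a larger response than Col-0 (10.8%) with 0.81% of all genes larger, and none had a smaller one, with 2.02% of all genes called in either direction. At an unadjusted p under 0.05 limma gave 41 larger and 9 smaller at 12 h, beside 1745 and 3052 of all genes tested. At 0 h and 24 h none of the 139 differed, with 0.00457% and 0.0% of all genes called, while 28 larger and 1 smaller at 0 h and 10 larger and 5 smaller at 24 h had an unadjusted p under 0.05. In either direction these were 20.9% of the 139 genes and 7.71% of all genes at 0 h, and at 24 h 15 of the 139 genes and 3054 of the 21864, the larger share being that of all genes. Of the 116 tested genes with only shared peaks, 5 had a larger and 8 a smaller response in bzip28-2 at 12 h.

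SEC31A after Tm had 285, 356.9 and 304.5 FPKM in bzip28-2 at 0 h and 177.5, 149.7 and 149 FPKM at 12 h, where Col-0 had at most 12.1 FPKM. The difference at 12 h was 3.82 (standard error 0.29, limma adjusted p = 0.0221). NAC103 had 61.0, 55.0 and 47.7 FPKM after Tm in bzip28-2 at 12 h against 4.94, 4.77 and 6.03 FPKM in Col-0, a difference of 2.96 (standard error 0.28, limma adjusted p = 0.0284). SARA1A had 96.7, 76.7 and 88.1 FPKM there, a difference of 2.33 (standard error 0.23, limma adjusted p = 0.0284). For these genes no Tm library of bzip28-2 overlapped with Col-0 at 12 h.

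Smaller differences were called for AT2G25460 (1.69), AT3G15980 (1.48), AT3G54000 (1.13), YIP1a (0.91), FBS3 (0.87), TIP (0.85), WRKY22 (0.84) and AT3G05937 (0.72). The remaining genes called, AT2G41231 (1.49), WRKY45 (1.33), AT1G67360 (0.86) and the COPI subunit AT1G62020 (0.74), are given to complete the 15 and not by the naming rule. Of the 15 genes, 4 came from the 24 h list only (AT2G41231, WRKY45, AT3G05937 and WRKY22). All 15 calls were lost without any 1 of Col-0 replicates 1, 2 and 3 or bzip28-2 replicates 1, 2 and 3, with adjusted p for SEC31A from 0.0619 to 0.152, and the sign of each named difference stayed the same. The bZIP60 transcript itself stood at 379, 304 and 299 FPKM after Tm in bzip28-2 at 12 h and at 194, 231.5 and 203 FPKM in Col-0, and its part in these differences was not tested. At 24 h, Tm replicate 2 of bzip28-2 was the lowest of its group for SEC31A, NAC103, SARA1A, AT3G15980, YIP1a and WRKY33, as for SEC31A with 32.5 FPKM against 64.3 and 94.1 FPKM.

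**Figure D4:**
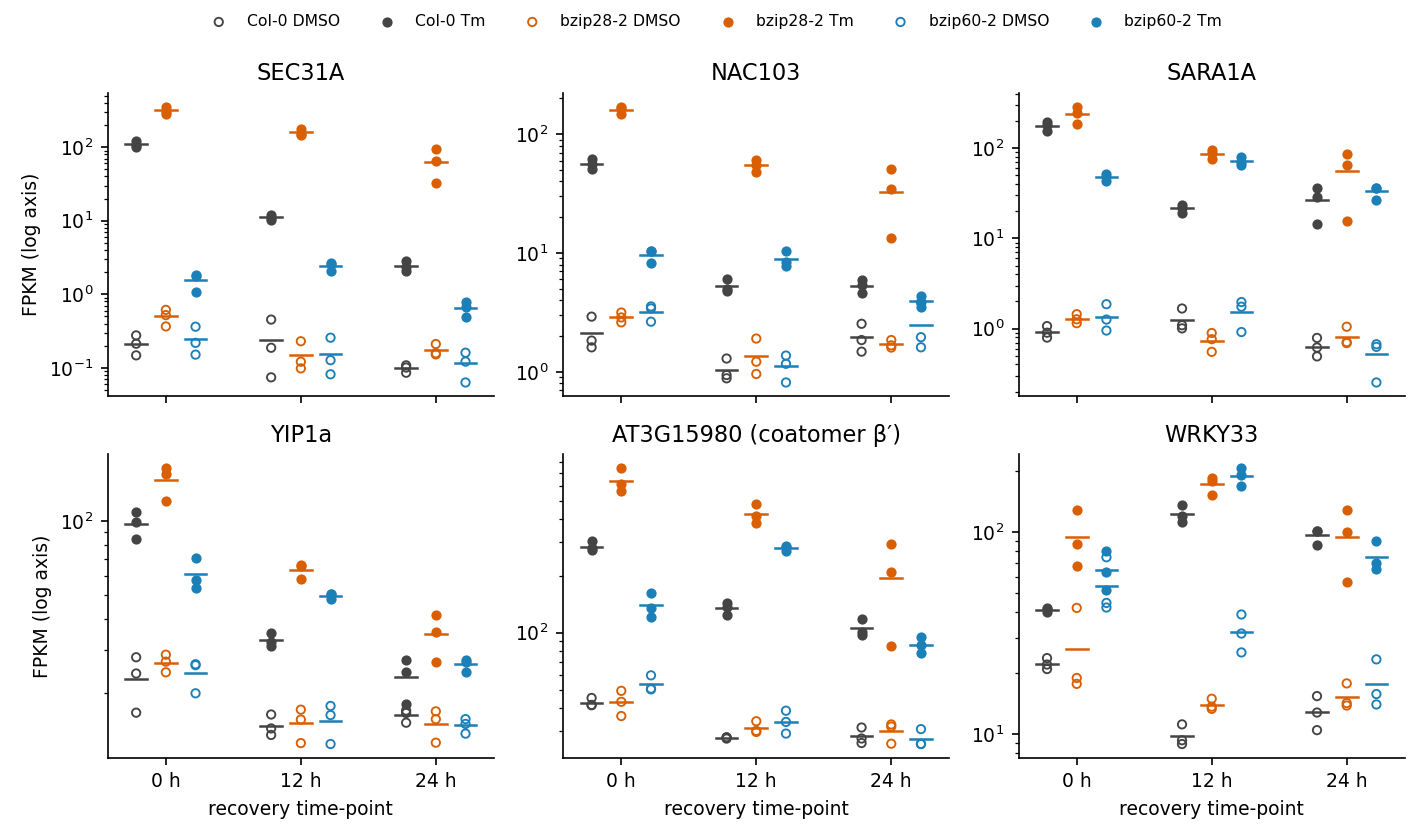
FPKM of 6 genes at these peaks in each library (log axis), by recovery time-point and genotype, with DMSO open, Tm filled and a bar at each mean of 3 replicates. SEC31A and NAC103 after Tm are lowest in bzip60-2 and highest in bzip28-2 at 0 h, and stay high in bzip28-2 at 12 h.

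The mutants were also set against each other, which takes no Col-0 library. At 0 h 3 of the 139 genes differed (0.0869% of all genes tested), all with a smaller response in bzip60-2. They were SEC31A (difference -6.68, standard error 0.44, limma adjusted p = 0.0168), NAC103 (-4.04, standard error 0.18, limma adjusted p = 0.00673) and AT2G25460 (-2.27, standard error 0.19, limma adjusted p = 0.0392). NAC103 after Tm had 171, 147 and 164.5 FPKM in bzip28-2 at 0 h, against 8.22 to 10.4 FPKM in bzip60-2. AT2G25460 had 27.7, 28.4 and 30.8 FPKM against 6.34, 6.15 and 4.94 FPKM, so neither gene overlapped between the mutants.

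At 12 h 1 gene differed, SEC31A (-5.54, standard error 0.23, limma adjusted p = 0.00451), with 0.0549% of all genes called, and at 24 h none did, with 0.00457%. At an unadjusted p under 0.05, limma gave 3 larger and 44 smaller in bzip60-2 at 0 h, 2 and 26 at 12 h, and 5 and 6 at 24 h. Over all genes tested these counts were 617 and 1856, 594 and 984, and 1044 and 805, which also leaned to smaller at 0 and 12 h, and the share at 24 h was 7.91% of the 139 genes and 8.46% of all genes. At 0 h, 2 of the 3 calls held without bzip28-2 replicate 1 and none held without any other replicate of either mutant, namely bzip28-2 replicate 2 or 3 or bzip60-2 replicate 1, 2 or 3. At 12 h the call was lost without bzip60-2 replicate 2 or 3, with adjusted p of 0.0642 and 0.168 in limma.

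The comparisons of both mutants with Col-0 share its libraries, so their differences are given side by side and no relation between them is drawn. Where the genotype that chose the genes took no part in the difference, the values can be described without that overlap. Of the 35 genes at these peaks called higher in bzip28-2 at 0 h, 32 had a smaller response in bzip60-2 than in Col-0 with a median difference of -0.66, while for the 170 other genes called higher there it was 120, with a median of -0.28. Of the 21 genes at these peaks called higher in Col-0 at 0 h, all 21 had a smaller response in bzip60-2 than in bzip28-2 with a median difference of -1.08, while for the 116 other genes it was 71, with a median of -0.16. Of the 54 called higher in bzip60-2 at 12 h, 45 had a larger response in bzip28-2 than in Col-0 with a median of 0.39, while for the 1713 other genes it was 1297, with a median of 0.24. These counts carry no test, since genes are not replicates.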

How the data were processed

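The members and all gene lists were chosen with earlier results of these data known, and the secretory and transcription factor groups after the names at the peaks had been read. The authors trimmed RNA-seq reads with cutadapt 1.8.1 and mapped them to TAIR10 with TopHat2 2.0.14 and Bowtie2 2.2.4, and the deposited values are FPKM from Cufflinks 1.3.0. The authors mapped ChIP reads with Bowtie 1.1.2 and called peaks with MACS2 2.1.2, and the deposited peak lists give a score per peak, which was read as enrichment over input, with 1 list per protein and time-point, so no test over samples was possible for peaks. Read counts were not used and library depth was not estimated here.

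Genes with FPKM over 1 in at least 1 library were tested on log2(FPKM + 1) by limma 3.58.1 (R 4.3.3), with Benjamini-Hochberg adjustment over all genes tested. Tm was compared with DMSO within each genotype and time-point. Genotypes were compared through fold changes taken between Tm and DMSO samples of the same replicate number. The values did not show that these numbers pair the samples, and did not exclude it. The scripts were tested on simulated data. The paper calls the replicates biological, each a pool of seedlings, and does not state that the pools were grown separately. The p-values measure only the spread between these samples. Peaks and elements were handled in Python 3.11.15 with RefSeq annotation of TAIR10, in which 6 of the gene IDs of the peaks were not found.

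Genes named were YIP1a and NAC103, those of the 5 peaks with the highest scores per time-point, the 4 largest positive and 2 largest negative called Tm changes per time-point in Col-0, the 2 largest called differences in each direction without overlap per genotype comparison and time-point, up to 10 loci with peaks at more than 1 time-point, and the genes of the fixed lists at the peaks. Any further gene in the text was picked once its values had been seen. Alternatives covered the pseudocount, the filter, scaling between libraries, the model, peak score, element mismatches and each replicate left out.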

Additional observations from a re-analysis of the deposited data

Results flagged for a closer look

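These differences between genotypes in the log2 fold change (Tm/DMSO) were called by the limma test of the difference itself, with adjusted p under 0.05, and had no overlap between replicates. Between bzip60-2 and Col-0 they were -5.47 at 0 h and -1.72 at 12 h for SEC31A, and -0.98 for WRKY33, 0.94 for AT3G54000 and 0.87 for AT3G05937 at 12 h. Between bzip28-2 and Col-0 they were 3.82 for SEC31A and 2.96 for NAC103 at 12 h. Between bzip60-2 and bzip28-2 they were -6.68 for SEC31A and -4.04 for NAC103 at 0 h, and -5.54 for SEC31A at 12 h.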

How the results depend on the processing

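Values here are the percent of the 139 genes called. On leaving out each replicate in turn, the Tm response in Col-0 ran from 5.04% to 14.4% at 0 h (15.1% with all), 36.7% to 37.4% at 12 h and 23.7% to 32.4% at 24 h. The differences of bzip60-2 and of bzip28-2 from Col-0 were 0.0% in each such fit, and those between the mutants 0.0% to 1.44% at 0 h, 0.0% to 0.719% at 12 h and 0.0% at 24 h. Correlations of deviations between samples of the same replicate number ran from -0.282 to 0.134, which does not show that the numbers pair the samples. With the replicate block the Tm response at 0 h was 1.44% and every called difference was at 0.0%.

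For bzip60-2 against Col-0 the main values were 0.719%, 5.04% and 0.0% at 0, 12 and 24 h. They were 4.32%, 11.5% and 2.88% with 12 unpaired libraries in 1 model, and 12.9%, 15.1% and 5.76% at an unadjusted p under 0.01 among genes called for Tm. At 0 h the value was 0.0% with scaled FPKM, without the filter or with a pseudocount of 0.1, and 1.39% among peaks with at least the median score. At 12 h it was 2.13% without the filter, 7.91% without a trend in the variance and 0.719% with a pseudocount of 0.1. For bzip28-2 against Col-0 (0.0%, 10.8% and 0.0%) the unpaired model gave 1.44%, 16.5% and 2.16%, and the unadjusted threshold 7.91%, 20.1% and 3.60%. At 12 h the pseudocount of 0.1 gave 1.44% and the higher scores 18.1%. Between the mutants (2.16%, 0.719% and 0.0%) the unpaired model gave 16.5%, 2.88% and 0.719%, and the unadjusted threshold 21.6%, 8.63% and 3.60%. Scaling gave 1.44% and no filter 0.709% at 0 h, the pseudocount of 0.1 gave 0.0% at 0 and 12 h, and the higher scores 4.17% and 1.39%. Among the higher scores the Tm response at 0 h was 25.0%. With 1 mismatch allowed, ERSE-I was in 27.9% of the peaks at 0 h and 9.46% at 24 h. The same rule found ERSE-I in 7.21% of the windows upstream of coding genes. That share lay below the Wilson interval of the peaks at 0 h (21.1 to 35.8%) and within that at 24 h (4.66 to 18.3%). The cause of the changes between settings was not tested.

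Of 79 calls of named genes none changed direction, 36 were called under every setting and 38 were lost with the replicate block. Leaving out peaks of which more than 50% is masked, an alternative chosen after seeing the data, left 15.6% at 0 h for the Tm response.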
